A study of Mus musculus with 6 samples.

Results

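Regulators of G protein signalling (RGS proteins) are described here through 10 genes, Rgs2, Rgs3, Rgs4, Rgs5, Rgs7, Rgs10, Rgs11, Rgs12, Rgs16 and Rgs19. They were taken by symbol from a family list that was chosen with earlier results of these data known. They are 10 of 20 entries named Rgs with an mRNA length, out of 23511 such entries in the table. RNA from 3 pools of carotid body, the chemosensory organ at the fork of the carotid artery, was compared with RNA from 3 pools of adrenal medulla, the inner part of the adrenal gland, which secretes catecholamines. All 6 pools came from untreated adult C57/BL6 mice with no transgene or other allele named in the labels. Per the design note, a pool used 10 mice and held 18 carotid bodies or 10 adrenal medullas, so n counts pools of whole tissue. The deposited values are RPKM, read counts divided by mRNA length and by the mapped reads of the library. Comparisons between genes depend on that division by length.

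A heterotrimeric G protein signals while its alpha subunit holds GTP. RGS proteins speed the hydrolysis of that GTP and so shorten the signal of the receptor upstream, and most act on the Gi/o class, the Gq class or both. The small R4 proteins are little more than an RGS domain and a membrane-binding helix, R7 proteins work as stable pairs with the G beta 5 subunit, and R12 and RZ proteins mostly serve Gi-type subunits. In vessels RGS2 and RGS5 are known to limit contraction driven by Gq receptors. RGS4, RGS5 and RGS16 carry a cysteine behind their first methionine, which marks them for the arginine N-degron pathway of protein breakdown, a pathway that oxygen and nitric oxide influence and that transcript levels do not show.

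The libraries held 13266225 to 16445925 reads, recovered from the RPKM values. The tissues differed in more than their secretory cells. Summed markers of smooth muscle and pericytes, the mural cells of vessels, lay at 1466 to 2282 RPKM in carotid bodies against 131 to 171 RPKM in adrenal medullas, with 12 of 13 tested markers higher in the carotid body. Summed adrenal cortex markers lay at 13.1 to 74.9 RPKM against 5993 to 7574 RPKM, with 7 of 7 higher in the adrenal medulla. Markers of catecholamine cells lay at 2256 to 3105 RPKM against 13058 to 24858 RPKM, abundant in both labelled tissues. Of the 8 markers, 6 were higher in the adrenal medulla. Ddc was the 1 higher in the carotid body, at a mean of 855 RPKM against 250 RPKM. Carotid body pool 2 stood apart in fat markers, at 3073 RPKM against 223 and 405 RPKM in pools 1 and 3. Adrenal medulla pool 3 stood apart with 0.0903 RPKM over 4 Y-linked genes. These genes summed to 27.4, 48.8 and 25.1 RPKM in carotid body pools 1, 2 and 3. In adrenal medulla pools 1 and 2 they summed to 65.9 and 68.3 RPKM. Y-linked RNA was thus not balanced between pools or tissues, and the part of sex in the RGS differences was not tested.

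The RGS set was larger and far more concentrated in the carotid body. The 10 transcripts summed to 2296, 2180.5 and 1731 RPKM in carotid body pools 1, 2 and 3, against 344, 269 and 221 RPKM in adrenal medulla pools 1, 2 and 3. The ratio of the mean sums was 7.44, and it was 1.61 without Rgs5, when the sums of the pools overlapped. Without both Rgs5 and Rgs4 the order turned round, to a mean of 107 ± 25.9 RPKM for the carotid body against 215 ± 48.7 RPKM for the adrenal medulla (SD), with every adrenal medulla pool above every carotid body pool. The 10 Rgs entries outside the list together reached only 5.19 to 8.44 RPKM in carotid bodies and 4.17 to 5.65 RPKM in adrenal medullas. As the list was chosen with earlier results of these data known, that small sum is not an independent finding.

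Each tissue had its own leading RGS transcript. Rgs5 made up 77.1%, 81.3% and 84.7% of the summed RGS RPKM in carotid body pools 1, 2 and 3, against 10.4%, 11.5% and 9.84% in adrenal medulla pools 1, 2 and 3. Mean Rgs5 shares, with the SD over 3 pools, were 81.0% ± 3.79 for carotid bodies and 10.6% ± 0.823 for adrenal medullas, with no overlap. An exact permutation test of this share, two-sided, gave p = 0.1, the smallest value that 3 pools against 3 allow. The shares of Rgs3, Rgs12 and Rgs19 gave the same p by this test, so it does not set Rgs5 apart. Rgs2 made up 0.802%, 2.43% and 0.945% in carotid bodies against 63.4%, 52.2% and 50.2% in adrenal medullas. By share it held ranks 3 to 5 of the set in carotid bodies and rank 1 in every adrenal medulla pool.

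Rgs4 had a similar share of the summed RPKM in both tissues although its level differed. It took 18.8%, 12.4% and 10.1% of the RGS RPKM in carotid bodies and 11.3%, 14.1% and 11.0% in adrenal medullas, and these ranges overlap. Rgs5, Rgs4 and Rgs2 together held 95.8% to 96.7% in carotid bodies and 71.0% to 85.1% in adrenal medullas. R4 members together held 96.4% to 97.0% in carotid bodies against 73.8% to 86.4% in adrenal medullas, and the R7 pair 0.141% to 0.337% against 5.80% to 6.32%. The remaining share in the adrenal medulla was spread over Rgs10 (3.56% to 12.4%), Rgs19 (3.92% to 6.35%), Rgs7 (4.50% to 5.13%), Rgs3 (1.30% to 2.90%) and Rgs11 (0.907% to 1.51%). In the carotid body Rgs10 held 1.95% to 2.25%, Rgs19 0.456% to 1.00% and Rgs3 0.276% to 0.535%, and Rgs7, Rgs12, Rgs16 and Rgs11 each stayed under Rgs3 in the same pool. Shares in a closed sum move together, so the size of the Rgs5 share lowers all others in the carotid body. With Rgs5 left out of the sum, Rgs4 led the carotid body at 66.1% to 82.1%, against 12.2% to 16.0% in the adrenal medulla, and Rgs2 held a mean of 7.56% ± 4.91 there against 61.8% ± 7.93 (SD).

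**Figure D1:**
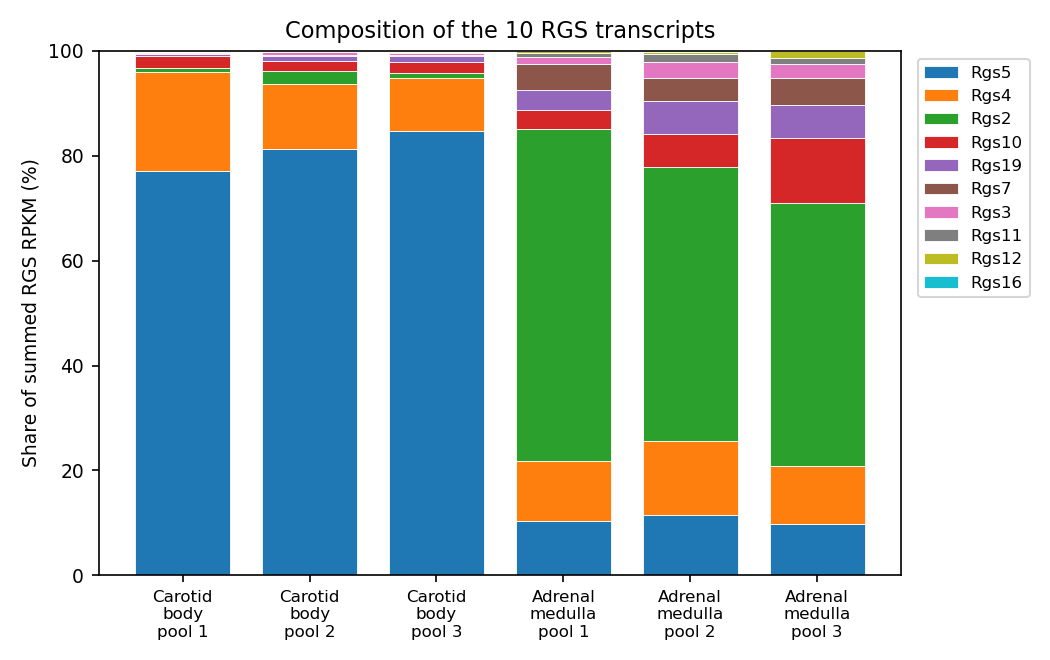
Share of the summed RPKM of 10 RGS transcripts (%, vertical axis) in each of 6 libraries, one stacked bar per library with a colour per gene. Rgs5 fills 77.1% to 84.7% of the carotid body bars and 9.84% to 11.5% of the adrenal medulla bars, where Rgs2 fills 50.2% to 63.4%, while the Rgs4 band has a like height in both tissues.

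In the carotid body the mean levels ran from Rgs5 through Rgs4, Rgs10, Rgs2, Rgs19, Rgs3, Rgs7, Rgs12 and Rgs16 down to Rgs11. Pool values of Rgs5, Rgs4 and Rgs10 did not overlap, and neither did those of Rgs12, Rgs16 and Rgs11, whereas each neighbouring pair from Rgs10 to Rgs12 overlapped. In the adrenal medulla the order was Rgs2, Rgs4, Rgs5, Rgs10, Rgs19, Rgs7, Rgs3, Rgs11, Rgs12 and Rgs16. There Rgs2 stood clear of all others, and the neighbouring pairs from Rgs4 through Rgs7 overlapped, as did Rgs11 and Rgs12. Both orders depend on the division by mRNA length. By share of recovered reads, not divided by length, Rgs10 held ranks 6 to 7 in adrenal medullas, at 1.14% to 4.22%. Rgs2 then held rank 3 in every carotid body pool. Rgs5 in carotid bodies and Rgs2 in adrenal medullas kept rank 1.

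Gene by gene, 4 members were called with the carotid body higher (Rgs5, Rgs4, Rgs10 and Rgs16) and 3 with the adrenal medulla higher (Rgs2, Rgs11 and Rgs7), while Rgs3, Rgs12 and Rgs19 passed no threshold. Calls are from limma on log2(RPKM + 1) at a Benjamini-Hochberg adjusted p under 0.05, over the 13357 genes with 1 RPKM or more in 3 or more libraries. Among all genes tested, 21.9% were called, 14.2% with the carotid body and 7.73% with the adrenal medulla as the higher tissue. The libraries of the 2 tissues did not overlap for the same 7 members. That was so for 37% of all genes tested, 22.3% with the carotid body above and 14.7% with the adrenal medulla above. The median log2 difference of the 10 members was 0.52, against 0.02 over all genes tested. Rgs11 and Rgs16 reached 1 RPKM only in the tissue where they were higher, so their entry into the test depended on that difference. Fewer cells of a type and less RNA per cell cannot be told apart in these whole-tissue pools.

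**Figure D2:**
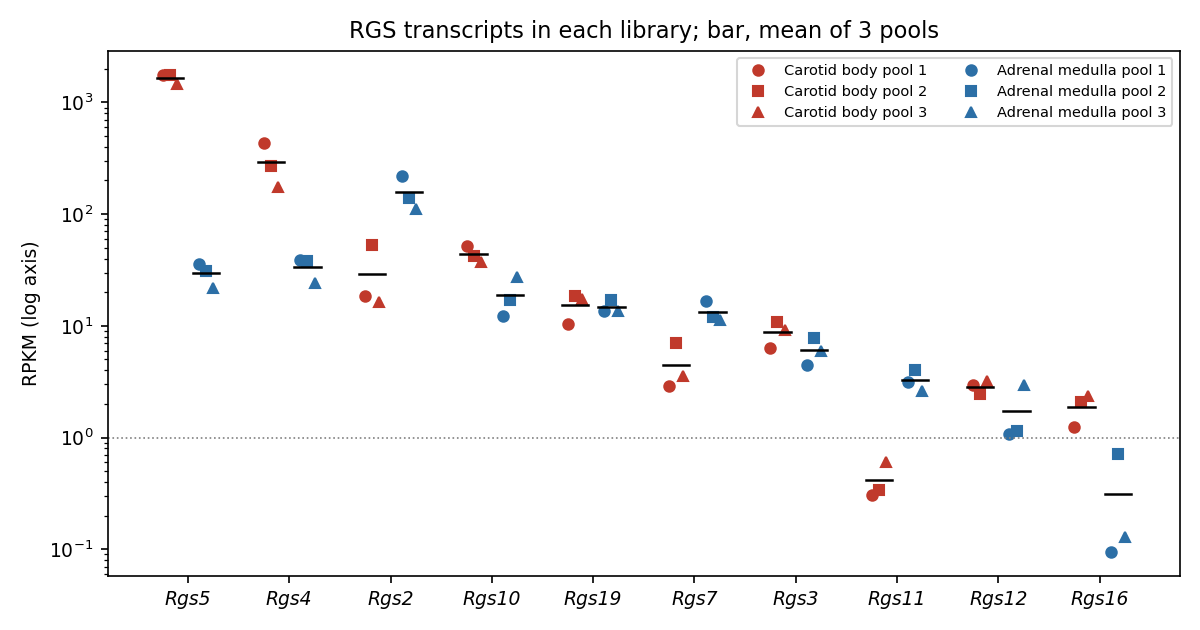
RPKM (log axis) of each RGS transcript in 3 carotid body pools (red) and 3 adrenal medulla pools (blue), with a bar at the mean of each tissue and a dotted line at 1 RPKM, the level of the filter. Rgs5 spans the widest gap, from 1465 to 1773 RPKM in carotid bodies against 21.8 to 35.8 RPKM in adrenal medullas, and Rgs19 shows overlapping points.

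Among the R4 proteins, Rgs5, a GTPase activator for Gi and Gq that is abundant in pericytes, stood at 1770.1, 1773 and 1465 RPKM in carotid body pools 1, 2 and 3. In adrenal medulla pools 1, 2 and 3 it stood at 35.8, 30.8 and 21.8 RPKM. The carotid body values lie close together and far above every adrenal medulla value. This rests on 130276 reads over the carotid body pools and 2315 over the adrenal medulla pools. In rank by RPKM among 23511 entries, Rgs5 was number 50, 23 and 52 in the carotid body pools and number 2326, 2664 and 3360 in the adrenal medulla pools. The ratio of mean RPKM was 56.6, and the log2 difference of 5.80 ± 0.26 (SE, limma adjusted p = 9.89e-06) was the sixth in size of 13357 toward the carotid body.

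Rgs4, which acts on Gi/o and Gq and is abundant in brain, had 431, 271 and 175 RPKM in the carotid body pools and 38.8, 38.0 and 24.3 RPKM in the adrenal medulla pools. All 3 carotid body pools lay above the adrenal medulla, and they differed among themselves more than the Rgs5 values did. The log2 difference was 3.01 ± 0.35 (SE, limma adjusted p = 4.33e-04). Rgs5 exceeded Rgs4 by a ratio of 4.10, 6.55 and 8.36 in the carotid body pools, whereas in the adrenal medulla pools this ratio of levels was 0.924, 0.812 and 0.895. Rgs4 and Rgs5 are neighbouring genes on chromosome 1 in the RefSeq annotation of GRCm38.p6, on opposite strands.

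Rgs2, known for its preference for Gq, ran the other way. It had 18.4, 53.1 and 16.3 RPKM in the carotid body pools and 218, 140.2 and 111 RPKM in the adrenal medulla pools. Every adrenal medulla pool was above every carotid body pool, and carotid body pool 2 was well above its fellow pools. The log2 difference was -2.52 ± 0.45 (SE, limma adjusted p = 0.00395), and without carotid body pool 2 it was -3.04 (adjusted p = 7.35e-04). With no filter on low values the call ended (adjusted p = 0.0512). The ratio of Rgs2 to Rgs5 was 0.0104, 0.0299 and 0.0112 in carotid bodies and 6.08, 4.55 and 5.10 in adrenal medullas.

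Rgs16, an inducible R4 protein for Gi and Gq, was a low transcript at 1.23, 2.08 and 2.35 RPKM in carotid bodies and 0.0950, 0.715 and 0.129 RPKM in adrenal medullas. These are 42, 65 and 86 reads against 3, 24 and 5 reads. The 2 tissues did not overlap, and adrenal medulla pool 2 came nearest to the carotid body. Its log2 difference of 1.15 ± 0.23 (SE, limma adjusted p = 0.00781) depends on the value added before the log, being 2.54 with 0.1 RPKM and 0.37 with 5 RPKM, and 3.03 when recovered reads were tested with voom. The call ended with no filter (adjusted p = 0.0550) and with carotid body pool 2 and adrenal medulla pool 3 both left out (adjusted p = 0.0510), within a range of 0.00469 to 0.0550 over all alternatives. In the share of summed RGS RPKM, Rgs16 overlapped between the tissues, at 0.0536% to 0.136% against 0.0276% to 0.266%.

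Rgs3, an R4 member with long isoforms, whose entry joins 3 RefSeq transcripts, had 6.34, 10.9 and 9.25 RPKM in carotid bodies and 4.46, 7.80 and 5.93 RPKM in adrenal medullas. The values overlap, and the log2 difference of 0.48 had a 95% interval of -0.15 to 1.10 (limma adjusted p = 0.282). A log2 difference of 1 in favour of the carotid body lies within that interval.

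**Figure D3:**
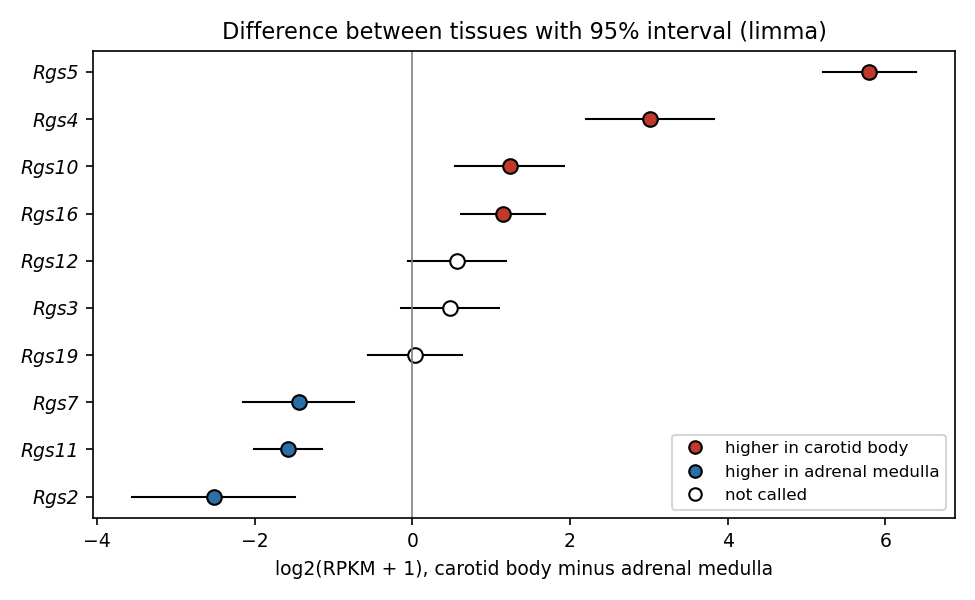
Difference in log2(RPKM + 1), carotid body minus adrenal medulla (horizontal axis), for 10 RGS genes with 95% intervals from limma, coloured by call. Rgs5 lies at 5.80 and Rgs4 at 3.01, Rgs7, Rgs11 and Rgs2 lie below 0, and the intervals of Rgs12, Rgs3 and Rgs19 cross 0.

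The stretches of 250 bases before the annotated start are printed for the leading transcript of each tissue and for Rgs4, the neighbour of Rgs5 that was also higher in the carotid body. They come from RefSeq on GRCm38.p6, a later build than the mm9 used for the reads, and run 5′ to 3′ on the strand of the gene. Rgs5 is at chr1:169655251-169655500 on the plus strand, Rgs4 at chr1:169747643-169747892 on the minus strand and Rgs2 at chr1:144004150-144004399 on the minus strand. Capitals mark matches on either strand to 4 motifs. These are TGACG, the core of a cyclic AMP response element, ACGTG, the hypoxia response core, TATAA, part of a box that places the start site, and GATAA, a site of zinc-finger factors of blood and vessel cells.
Rgs5: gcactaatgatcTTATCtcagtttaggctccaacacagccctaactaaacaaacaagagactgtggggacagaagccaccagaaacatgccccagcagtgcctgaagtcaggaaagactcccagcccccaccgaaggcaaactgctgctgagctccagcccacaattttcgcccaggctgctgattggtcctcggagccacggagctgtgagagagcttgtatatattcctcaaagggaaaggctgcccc
Rgs4: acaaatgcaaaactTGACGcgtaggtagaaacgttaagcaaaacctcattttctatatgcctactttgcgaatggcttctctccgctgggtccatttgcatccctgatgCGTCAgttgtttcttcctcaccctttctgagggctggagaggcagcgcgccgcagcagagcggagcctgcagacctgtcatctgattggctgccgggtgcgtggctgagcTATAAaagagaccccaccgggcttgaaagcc
Rgs2: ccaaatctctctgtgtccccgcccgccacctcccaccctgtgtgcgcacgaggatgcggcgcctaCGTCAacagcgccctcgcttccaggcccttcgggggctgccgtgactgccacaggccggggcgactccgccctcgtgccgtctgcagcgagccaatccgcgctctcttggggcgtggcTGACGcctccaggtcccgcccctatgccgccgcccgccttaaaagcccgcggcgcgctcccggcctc

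The Rgs5 and Rgs4 stretches each hold 53.6% G and C, against 72.4% for Rgs2. TGACG matched 2 times in Rgs4, starting 236 and 141 bases before the start, and 2 times in Rgs2, at 185 and 67 bases, but not in Rgs5; 17.8% of all 32851 promoter stretches of this length hold a match. TATAA matched once, in Rgs4, 31 bases before the start (22.8% of all stretches), and GATAA once, in Rgs5, 238 bases before it (22.6%). ACGTG matched in none of the 3 stretches and is present in 16.6% of all. The looser E-box CANNTG, not capitalised, matched 4 times in Rgs4 only and is present in 66.2% of all. One E-box match in Rgs4, 138 bases before the start, overlaps the TGACG match at 141. These matches describe letters, and 9 of 10 members had an entry in the table. Only these exact letters were searched, so a stretch without a match may still hold another form of the box or site.

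Of the R12 pair, Rgs10, a small Gi-directed protein abundant in microglia and other immune cells, had 51.6, 42.5 and 37.2 RPKM in carotid bodies and 12.2, 16.9 and 27.4 RPKM in adrenal medullas. The tissues did not overlap, with adrenal medulla pool 3 nearest to the carotid body. The log2 difference was 1.23 ± 0.30 (SE, limma adjusted p = 0.0195). This call ended without carotid body pool 1 (adjusted p = 0.0811) or 2 (0.0511), without adrenal medulla pool 1 (0.0542) or 2 (0.0693), and with no filter on low values (0.0826), and other alternatives went down to 0.00228. Rgs12, a large protein with further domains that bind receptors and G alpha, had 2.93, 2.46 and 3.20 RPKM in the carotid body. In the adrenal medulla it had 1.07, 1.14 and 2.98 RPKM, so that pool 3 alone reached the carotid body range. Its log2 difference was 0.56, with a 95% interval of -0.06 to 1.19 (limma adjusted p = 0.196). Without adrenal medulla pool 3 it was called, at 0.87 (adjusted p = 0.00937), and also without carotid body pool 2 as well, at 0.95 (0.0120), while other alternatives went up to 0.488.

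Both R7 members were higher in the adrenal medulla. Rgs7 had 2.92, 7.02 and 3.54 RPKM in carotid bodies and 16.8, 12.1 and 11.3 RPKM in adrenal medullas. The log2 difference was -1.45 ± 0.31 (SE, limma adjusted p = 0.0101), which ended as a call with no filter (adjusted p = 0.0595); over all alternatives the adjusted p ran from 0.00364 to 0.0595. Rgs11, known with Rgs7 from bipolar cells of the retina, had 0.309, 0.338 and 0.608 RPKM in carotid bodies against 3.12, 4.05 and 2.64 RPKM in adrenal medullas. These are 9, 9 and 19 reads against 84, 116 and 87 reads, with no overlap. The log2 difference of Rgs11 was -1.58 ± 0.19 (SE, limma adjusted p = 4.78e-04), and it was -2.72 with 0.1 RPKM added, -0.61 with 5 RPKM added and -2.94 with voom.

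Exons of Rgs11 overlap those of Arhgdig, a gene on the other strand, in the GENCODE M21 annotation, and the protocols do not say that strand was kept. Arhgdig had 6.48, 6.14 and 7.78 RPKM in carotid bodies and 18.2, 33.5 and 33.8 RPKM in adrenal medullas, a log2 difference of -1.87 (limma adjusted p = 0.00150). Reads of the overlap cannot be told apart in the deposited values, so the level of Rgs11 is uncertain. Arhgdig was named for this overlap, after its values were seen. Exons of Rgs12 and Rgs16 overlap noncoding annotations on the other strand (Gm43791 and Gm28513), for which no value is used here.

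Of the 5 partners of the R7 proteins, 3 were tested and 1 was called, with a median log2 difference of -0.62 over the 3. Among all genes tested, 21.9% were called. Rgs7bp, the membrane anchor of R7 complexes, had 11.4, 9.74 and 12.1 RPKM in carotid bodies against 2.57, 2.14 and 1.35 RPKM in adrenal medullas. It was higher in the carotid body by 2.02 on the log2 scale (limma adjusted p = 3.89e-04), opposite to Rgs7 and Rgs11. Gnb5, the G beta 5 subunit without which R7 proteins are unstable, had 33.5, 36.4 and 30.6 RPKM against 58.7, 56.8 and 42.2 RPKM. It was not called (log2 -0.62, adjusted p = 0.0800) but was called with pool numbers as a replicate block (adjusted p = 0.0449), without adrenal medulla pool 3 (-0.77, 0.0249) and without carotid body pool 2 as well (-0.83, 0.0233), and under median-ratio scaling (0.0332). Gpr158, an orphan receptor that binds RGS7 at the membrane, had 0.820, 0.939 and 0.755 RPKM against 2.50, 2.78 and 1.17 RPKM. It reached 1 RPKM in adrenal medullas only, so its entry into the test depended on that difference. It too was not called (log2 -0.74, adjusted p = 0.0521), but was called with the replicate block (0.0313), without adrenal medulla pool 3 (-0.99, 0.00314) and without carotid body pool 2 as well (-1.02, 0.00845). Median-ratio (0.0253) and quantile scaling (-0.95, 0.00633) and voom (-1.25, 0.0485) also called it. Over all alternatives the adjusted p ran from 0.0233 to 0.263 for Gnb5 and from 0.00314 to 0.177 for Gpr158. Gpr179, a receptor relative of Gpr158 known from the retina, stayed under the filter at 0.342, 0.471 and 0.685 RPKM in carotid bodies against 1.42, 1.26 and 0.924 RPKM in adrenal medullas, with no overlap. Rgs9bp was also under the filter, at less than 1 RPKM in every library. Gnb5, Gpr158 and Gpr179 were thus each above in all adrenal medulla pools, and Rgs7bp in all carotid body pools. Such a lack of overlap held for 37% of all genes tested, 14.7% with the adrenal medulla above and 22.3% with the carotid body above. Gnb5 exceeded the sum of Rgs7 and Rgs11 by a ratio of 4.94 to 10.4 in carotid bodies and 2.94 to 3.52 in adrenal medullas.

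Rgs19, the RZ member, which acts on Gi and Gz subunits, had 10.5, 18.5 and 17.35 RPKM in carotid bodies and 13.5, 17.1 and 13.7 RPKM in adrenal medullas. The ranges overlap widely. Its log2 difference of 0.03 had a 95% interval of -0.56 to 0.63 (limma adjusted p = 0.958), and the sign depended on the scaling and on single libraries.

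The libraries with high or low RGS levels also differed in cell type markers. Rgs5 set against the summed smooth muscle and pericyte markers gave ratios of 0.861, 1.21 and 0.642 in carotid bodies and 0.275, 0.203 and 0.127 in adrenal medullas, without overlap. Acta2, Myl9 and Tagln carried most of that sum, and the single markers varied widely in their ratio of mean RPKM, from 0.937 for Des to 42.4 for Myh11, beside 56.6 for Rgs5. For Rgs4 the same ratios were 0.210, 0.185 and 0.0768 in carotid bodies and 0.297, 0.249 and 0.142 in adrenal medullas, and these overlap. None of the 14 mural markers was at 0 in either tissue. Endothelial markers were higher in the carotid body for 8 of 11 (513 to 607 RPKM summed, against 212 to 255) and glial markers for 8 of 8 (325 to 350.3 RPKM, against 27.5 to 46.3). Fibroblast markers were higher there for 6 of 6, at 2157 to 2860 RPKM against 58.9 to 167 RPKM. Of 10 neuron markers, 2 were called for the carotid body and 1 for the adrenal medulla, with sums of 435 to 452 RPKM against 213 to 398 RPKM. Of 2 skeletal muscle markers tested, 1 was higher in the carotid body, with sums over the list of 17.6 to 24.1 RPKM against 12.2 to 19.9 RPKM. The part of these cells in the RGS differences was not tested.

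Rgs10 is set beside leukocyte markers here. The 6 leukocyte genes with a length summed to 379, 326 and 292 RPKM in carotid body pools 1, 2 and 3 and to 146, 197 and 312 RPKM in adrenal medulla pools 1, 2 and 3. Lyz2, a lysozyme of macrophages and neutrophils, made up most of each sum. Rgs10 was lowest in the pool of each tissue with the lowest sum and highest in the pool with the highest, but single markers differed from this order. Ptprc, the common leukocyte antigen, stood at 2.91, 2.59 and 0.874 RPKM in adrenal medulla pools 1, 2 and 3, opposite to Rgs10. Csf1r, a macrophage receptor, stood at 34.8, 24.5 and 29.6 RPKM in carotid body pools 1, 2 and 3, where Rgs10 was lowest in pool 3. Its ratio to the sum was 0.136, 0.130 and 0.127 in carotid bodies and 0.0837, 0.0859 and 0.0876 in adrenal medullas. Without Lyz2 the ratio was 0.537, 0.765 and 0.667 in carotid bodies and 0.538, 0.622 and 0.876 in adrenal medullas, and these overlap. By limma, 2 of 4 tested leukocyte markers were higher in the carotid body, and Cd79a was at 0 in its 3 pools. This ratio was chosen after the values were seen, and the part of leukocytes in the Rgs10 difference was not tested.

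The adrenal medulla pools, where Rgs2 was high, carried summed cortex markers at 6883, 5993 and 7574 RPKM, in an order unlike that of Rgs2. Single markers differed in their order. Star (2950, 2645 and 2153 RPKM) and Mc2r (245, 106 and 85.7 RPKM) fell from pool 1 to pool 3 as Rgs2 did. The other cortex markers did not, and Cyp21a1 rose from 858 through 1059 to 3107 RPKM. Within the carotid body Rgs2 was highest in pool 2, which had the most fat marker RNA, and the cortex markers were highest in pool 1. In adrenal medulla pools 1, 2 and 3 the fat markers summed to 465, 218 and 628 RPKM, so the pool with the most fat marker RNA had the lowest Rgs2 there. Limma called 0 of 6 fat markers, with 0 at an unadjusted p under 0.05 and 0 called by voom or with the replicate block. The cortex marker Cyp11b2 was at 0 in carotid body pools 2 and 3, and the brown fat marker Ucp1 was at 0 in pool 1 of both tissues. The part of cortex or fat tissue in the Rgs2 values was not tested.

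**Figure D4:**
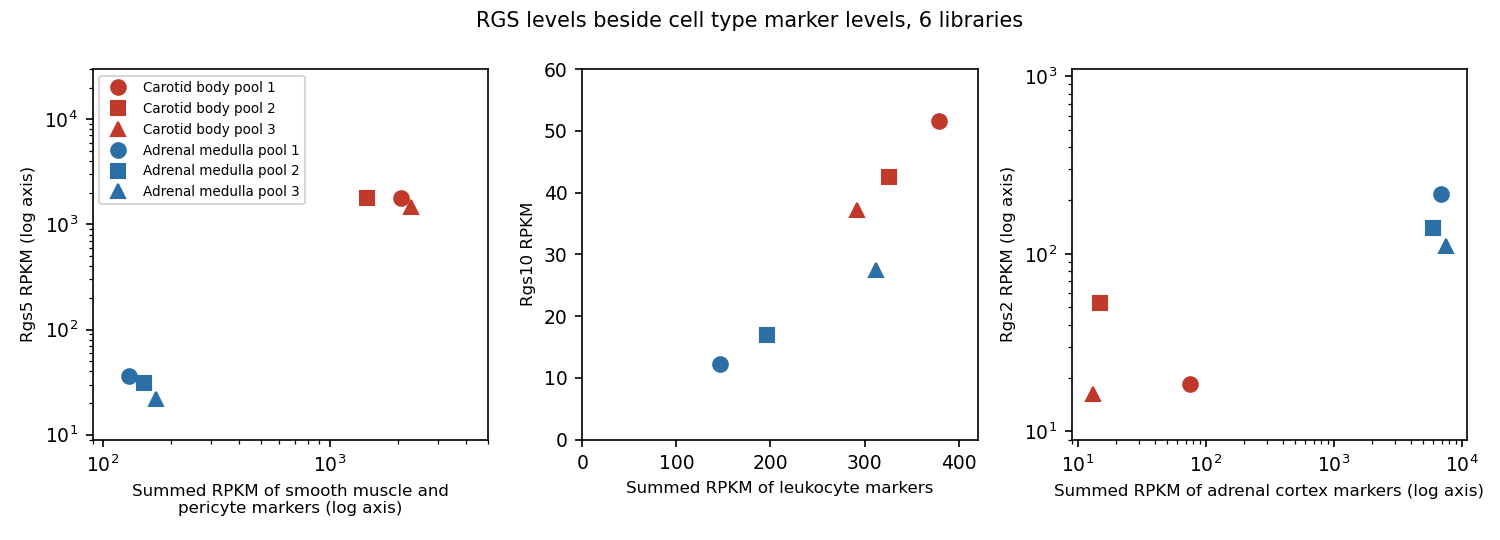
RPKM of Rgs5, Rgs10 and Rgs2 (vertical axes) against the summed RPKM of smooth muscle and pericyte, leukocyte and adrenal cortex markers (horizontal axes) in 6 libraries, with log axes in the left and right panels and linear axes in the middle. Within each tissue Rgs10 has the same order as the leukocyte sum, of which Lyz2 is the most, from 12.2 to 27.4 RPKM over the adrenal medulla pools, while in the outer panels the points of each tissue form a separate group.

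By the distance between centred log2(RPKM + 1) profiles over 6 libraries, the 5 genes nearest to Rgs5 were Gap43 (a root mean square distance of 0.17), Cytl1 (0.23), Olfr78 (0.31), Coch (0.32) and Sfrp2 (0.33). These encode a protein of growing axons, a secreted cytokine-like factor, an olfactory receptor, cochlin and a secreted inhibitor of Wnt signals. Nearest to Rgs2 were Prdx3 (0.25), Idh1 (0.26), Gja1 (0.38), Sc4mol (0.40) and Zcchc16 (0.40). Prdx3 encodes a mitochondrial peroxiredoxin, Idh1 a cytosolic isocitrate dehydrogenase and Gja1 connexin 43. Prdx3 had 79.5, 134 and 63.3 RPKM in carotid bodies and 581, 441 and 377 RPKM in adrenal medullas, with pool 2 the highest of the carotid body as for Rgs2. These 6 libraries form 2 groups by tissue, so few independent points underlie each distance.

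Of the other RGS genes, Rgs18, known from platelets and other blood cells, was the only 1 of 2 tested that was called. It had 2.15, 3.00 and 1.21 RPKM in carotid bodies and 0.160, 0.0377 and 0.196 RPKM in adrenal medullas (log2 1.42, limma adjusted p = 0.00193), and it reached 1 RPKM in carotid bodies only. That log2 difference was 3.25 with 0.1 RPKM added, 0.46 with 5 RPKM added and 3.93 with voom. Rgs17, an RZ member, had 1.81, 2.21 and 1.27 RPKM against 2.49, 2.63 and 1.04 RPKM and was not called (adjusted p = 0.833). The other 8 with a length stayed under the filter, among them Rgs14 with 85 against 23 reads and Rgs1 with 15 against 50 reads over the pools. Rgs13, a small member known from mast cells and B cells, had 18 reads over the carotid body pools and 0 over the adrenal medulla pools. A count of 0 allows up to 0.122 to 0.149 RPKM in an adrenal medulla pool, counting error only. Rgs21 has no listed length and had 0 reads in all 6 libraries.

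The 13 G alpha subunits listed, not all of which these proteins act on, were all detected, and their sum differed less than the RGS sum. It was 2139, 2086 and 2235 RPKM in carotid bodies and 1240, 1347 and 1262 RPKM in adrenal medullas, and the Gnas entry made up 75.3% to 83.2% of it. That entry joins 9 RefSeq transcripts of the Gnas locus, a noncoding one among them, so its value is not that of the stimulatory Gs alpha alone, a subunit that most RGS proteins do not act on. Summed RGS over summed G alpha was 1.07, 1.05 and 0.774 in carotid bodies and 0.277, 0.200 and 0.175 in adrenal medullas. Without Gnas the ratio was 6.38, 4.83 and 4.61 in carotid bodies and 1.12, 0.860 and 0.753 in adrenal medullas. Of 13 subunits, 4 were called with the carotid body higher and 1 with the adrenal medulla higher (3 and 1 with the replicate block), leaving 8 not called. The median log2 difference of the 13 was 0.28. Over all genes tested, 21.9% were called, 14.2% with the carotid body and 7.73% with the adrenal medulla higher. With the replicate block 27% of all genes were called. Gnal, the olfactory relative of Gs alpha, was higher in the carotid body (log2 1.29, limma adjusted p = 0.00765), as was Gna15, a Gq-class subunit of blood cells (0.93, adjusted p = 0.0197). Gna15 had 1.40, 1.57 and 2.54 RPKM in carotid bodies and 0.151, 0.461 and 0.862 RPKM in adrenal medullas. It reached 1 RPKM in carotid bodies only, so its entry into the test depended on that difference. The call of Gna15 ended on leaving out carotid body pool 3 (0.0627), adrenal medulla pool 1 (0.0666) or 2 (0.0620), and under quantile scaling (0.0764). Its log2 difference was 1.87 with 0.1 RPKM added, 0.31 with 5 RPKM added and 2.08 with voom.

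Gnai2, the Gi subunit that many RGS proteins act on, had 179, 208 and 171 RPKM in carotid bodies and 74.2, 116 and 118 RPKM in adrenal medullas (log2 0.88, adjusted p = 0.0387). That call ended without carotid body pool 1 (0.0920), 2 (0.106) or 3 (0.0891), without adrenal medulla pool 1 (0.127) or 2 (0.0796), and under median-ratio scaling (0.0736). Gnas, higher by 0.84 (adjusted p = 0.0419), lost its call with the replicate block (0.0573), without carotid body pool 1 (0.0955) or 3 (0.160), without adrenal medulla pool 1 (0.137), 2 (0.142) or 3 (0.0634), and under median-ratio (0.114) and quantile scaling (0.0530). Gna14, another Gq-class subunit, was the 1 higher in the adrenal medulla, at 1.79, 1.94 and 1.75 RPKM in the carotid body against 15.9, 10.8 and 3.81 RPKM (log2 -1.80, adjusted p = 0.0142). It lost its call without carotid body pool 1 (0.0565). With no filter on low values the calls of Gna15, Gnai2, Gnas and Gna14 ended too, at adjusted p of 0.0873, 0.0737, 0.107 and 0.0985. The lowest adjusted p over their alternatives were 0.00452 for Gna15, 0.0258 for Gnai2, 0.0239 for Gnas and 1.98e-04 for Gna14.

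The remaining pathway lists are short, and their counts stand beside the 21.9% called over all genes, or 27% with the replicate block. Of 7 receptor kinases and arrestins, which switch off receptors in place of G alpha, 1 was called higher in the carotid body, against 3 with the replicate block, with a median log2 difference of 0.22. It was Arrb1, beta-arrestin 1 (log2 1.05, adjusted p = 0.0188), whose call ended without carotid body pool 1 (0.0729) or 3 (0.0745), without adrenal medulla pool 1 (0.0615) or 2 (0.0755), and with no filter (0.0561). Of 5 other G alpha regulators tested, Gpsm2, which binds Gi alpha in its GDP form, was called at the edge (log2 0.86, adjusted p = 0.0499), against 2 calls with the replicate block and a list median of 0.39. Without any 1 of carotid body pools 1 to 3 (0.143, 0.129 and 0.0867) or adrenal medulla pools 2 and 3 (0.111 and 0.0734), or with carotid body pool 2 and adrenal medulla pool 3 both out (0.109), the call of Gpsm2 ended, as it did with 0.1 RPKM added (0.0567), no filter (0.129) or a filter at 5 RPKM (0.0527). The lowest adjusted p over alternatives were 0.00411 for Arrb1 and 0.0193 for Gpsm2. Of 3 phospholipase C beta genes tested, the effectors of Gq, limma called 0, although 2 had an unadjusted p under 0.05 and voom called 1. Their median log2 difference was 0.58, and with the replicate block 1 was called, with the adrenal medulla higher.

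The enzymes of the cysteine N-degron route, which acts on RGS4, RGS5 and RGS16 proteins, were present in both tissues. Ado, which oxidises the exposed cysteine, the methionine aminopeptidases Metap1 and Metap2, the arginyltransferase Ate1 and the ubiquitin ligase genes Ubr1, Ubr2, Ubr4 and Kcmf1 ranged over 3.32 to 56.3 RPKM across genes and libraries. Limma called 0 of these 8, as did the fit with the replicate block and voom on recovered reads, and 1 had an unadjusted p under 0.05. Over all genes 21.9% were called, and 27% with the block, and a list of 8 is too short for no call to be set apart from that background. Their log2 differences ran between -0.57 and 0.19.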

How the data were processed

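RNA was sequenced from 3 carotid body and 3 adrenal medulla pools. Per the labels' protocols, total RNA was amplified as aRNA (Amino Allyl MessageAmp II), fragmented, and sequenced from libraries built by the Illumina protocol. Reads were aligned with Bowtie 0.9.8 to mm9, per the submitters' processing notes; the counting rule is not given in the sources used here. The deposited RPKM values were made by the authors. RPKM times the listed mRNA length gave whole reads, within 0.01 of a read, for 106276 of 106276 values above 0, and the 3217 entries without a length, whose values are reads, were kept out. Depth limits low genes: at 2 kb, 1 read is 0.0304 to 0.0377 RPKM. The labels name no molecular identifiers, so counting limits cover counting error only.

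Differences are carotid body minus adrenal medulla on log2(RPKM + 1), with limma 3.58.1 in R 4.3.3 (variance trend, no block, 8.47 degrees of freedom), and Benjamini-Hochberg adjustment over 13357 genes with at least 1 RPKM in 3 libraries. This scale understates differences of low genes. The p-values measure the spread between these pools. Same-numbered pools of the 2 tissues deviated together, with correlations of 0.26, 0.13 and 0.47 between their deviations from the tissue means across genes. Carotid body pool 2 deviated more with adrenal medulla pool 1 (0.29). The titles share these numbers, and the pairing rests on this check alone. A number does not mark the same mice throughout, since summed Y-linked RNA was 25.1 RPKM in carotid body pool 3 and 0.0903 RPKM in adrenal medulla pool 3. A fit with the pool number as a replicate block was run beside the main one. The pipeline was tested on simulated data. Other pseudocounts, filters and scalings, voom and left-out libraries were tried. The members, lists and rules were chosen with earlier results of these data known. All members and other Rgs genes could be named, all R7 partners and N-degron enzymes, and up to 4 called genes of each other pathway list. Marker lists were given as counts and sums, and some single markers were named outside this rule. Python 3.11.15, pandas 2.3.3 and matplotlib 3.10.9 handled tables and plots.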

Additional observations from a re-analysis of the deposited data

How the results depend on the processing

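Of the 10 RGS genes, Rgs3, Rgs4, Rgs5 and Rgs11 kept direction and side of the threshold in all alternatives that tested them. With no filter on low values, 2 members were called for the carotid body and 1 for the adrenal medulla (the cause was not tested); without any 1 library, 3 to 5 and 3 were called. Over all genes, the filter at 5 RPKM, with 8872 genes tested, called 1103 and 632 genes. Leaving out both carotid body pool 2 and medulla pool 3 called 2067 higher in the adrenal medulla, against 1033 with all pools; the cause was not tested. The ratio of summed RGS RPKM was 1.61 without Rgs5 and 6.75 to 8.44 without any 1 library, against 7.44. Rgs19 changed sign under median-ratio (-0.043) and quantile scaling (-0.025), and also with those 2 pools left out (-0.16), and ran from -0.11 to 0.27 without any 1 library. Rgs17, at -0.11, ran from -0.38 to 0.036 without any 1 library and was -0.49 with those 2 pools left out. The replicate block, which left 4 and 3 members called, changed no call of the RGS and pathway genes named beyond Gnb5, Gpr158 and Gnas. The share of Rgs5 differed by 66.8 to 72.4 percentage points in all alternatives. Low depth limits Rgs16 and Rgs11, with 32 and 37 reads in their lower tissue.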
